A study of Mus musculus with 2 samples.

Results

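The genes described here encode the integrins, the syndecans and the laminin chains, the cell-surface receptors through which myoblasts hold on to the basement membrane and a major family of its ligands. They were chosen by symbol in the array's platform annotation (names starting with Itga, Itgb, Sdc1 to Sdc4, or Lama, Lamb and Lamc with a digit, without the binding-protein genes Itgb1bp1, Itgb1bp2 and Itgb3bp), and numbered 40 of 18193 named genes and 90 of 45037 probe sets. Of the 40 genes, 16 encode integrin alpha subunits, 10 integrin beta subunits or beta-like proteins, 4 syndecans and 10 laminin chains. Signal was compared between cultured mouse skeletal myoblasts wild type (WT) for Foxj3, which encodes a forkhead transcription factor, and Foxj3 knockout (KO) myoblasts. Both cultures had been passaged 3 times in medium with 20% serum and were collected at 80% confluency, and each was measured on 1 Affymetrix Mouse430_2 array with no replicate. The strain, the age of the animals, the knockout allele and the number of animals behind each culture are not stated by the labels. With 1 array per group there was no test and no p-value, and each difference below describes these 2 arrays. A pair of signals is always given with WT first and KO second.

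An integrin is a pair of 1 alpha and 1 beta subunit that spans the membrane, binds matrix proteins outside and, through talin, kindlin and focal adhesion proteins, the actin skeleton inside. Itgb1 pairs with the largest number of alpha subunits, and its pair with Itga7 is the main laminin receptor of skeletal muscle. Syndecans are transmembrane proteoglycans whose heparan sulphate chains bind matrix proteins and growth factors, and Sdc3 and Sdc4 mark muscle satellite cells. A laminin is a trimer of 1 alpha, 1 beta and 1 gamma chain, and the trimer of Lama2, Lamb1 and Lamc1 is the characteristic laminin of the muscle fibre's basement membrane.

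The sequences shown are those upstream of Itgb1 and Sdc4, because these were the members at least 2-fold different between the arrays by their brightest probe set. Each run holds the 250 bases before the annotated start of the gene, 5′ to 3′ on the gene's own strand, from RefSeq on build GRCm38.p6, at chr8:128685404-128685653 (plus strand) for Itgb1 and chr2:164443189-164443438 (minus strand) for Sdc4. Capitals mark the GC box GGGCGG on either strand and the letters TATAA on either strand.
Itgb1: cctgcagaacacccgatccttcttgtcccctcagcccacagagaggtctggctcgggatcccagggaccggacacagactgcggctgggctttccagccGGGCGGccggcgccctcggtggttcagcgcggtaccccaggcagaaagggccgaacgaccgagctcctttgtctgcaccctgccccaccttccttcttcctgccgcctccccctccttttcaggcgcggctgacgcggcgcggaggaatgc
Sdc4: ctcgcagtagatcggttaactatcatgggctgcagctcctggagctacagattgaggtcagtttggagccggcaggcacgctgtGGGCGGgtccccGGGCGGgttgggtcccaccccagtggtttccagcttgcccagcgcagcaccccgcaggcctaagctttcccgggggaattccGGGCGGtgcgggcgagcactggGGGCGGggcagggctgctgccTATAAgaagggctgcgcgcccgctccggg
Itgb1 had 1 GC box and Sdc4 had 4, and Sdc4 alone of this pair had TATAA, once. Over all 32851 RefSeq windows of this length, 32.7% held a GC box and 22.8% held TATAA on either strand. The G and C content was 68.0% in both windows, where the median of all windows was 52.4%. Neither window held the forkhead core TGTTTAC or the E-box CANNTG on either strand, letters found in 3.17% and 66.2% of all windows. Among the 30 windows of the 27 members that matched by symbol, 0 held TGTTTAC, 23 an E-box, 13 a GC box and 6 TATAA, and the median G and C content was 58.0%. These are matches of letters in a window and not binding sites.

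The arrays were similar in overall brightness, with median signals of 62.03 (WT) and 63.94 (KO), and 59.2% and 60.8% of probe sets over the detection floor of 47.04. Foxj3 itself read 495.51 and 77.28 by 1435362_at and 79.74 and 99.40 by 1438220_at, so its measured probe sets differed in direction and the labels "WT" and "KO" are used as given. Both libraries carried myoblast markers: all 9 listed markers were measured, 5 with log2 ratios above 0 and 4 below, and their summed signal was 9046 (WT) and 9372 (KO). Among them Myod1 read 631.27 and 1750.95 (2.77-fold higher in the knockout) and Des, which encodes desmin, 2024.29 and 1090.79 (1.86-fold lower). Differentiated muscle markers were lower in the knockout in 8 of 8 cases, 7 of them at least 2-fold, and their summed signal was 22447 and 4945. This difference accompanies every comparison below, and its part in the members' values was not tested. Summed signals were 952 and 805 for 7 of 9 leukocyte markers, 184 and 259 for 3 of 7 endothelial, 542 and 685 for 5 of 5 platelet, 294 and 359 for 3 of 7 epithelial, 304 and 326 for 3 of 4 Schwann, 1201 and 1160 for 5 of 6 fibroblast and 7165 and 6987 for 4 of 5 smooth muscle markers (measured of those with a probe set here, the platelet list including the member Itga2b). The near-level smooth muscle sum is mostly Acta2 (6049.03 and 5080.98), while Myh11 was 3.99-fold and Smtn 2.10-fold lower and Tagln 2.79-fold higher, and of the fibroblast markers Tcf7l2 was 2.14-fold lower. The defining leukocyte gene Ptprc, the endothelial gene Pecam1, the epithelial genes Cdh1 and Krt14 and the fibroblast gene Lum were under the floor on both arrays. Other markers of these lists exceeded it on both, such as Adgre1 (312.77 and 210.32), Csf1r (171.16 and 276.49), Kdr (110.20 and 101.27), Epcam (183.69 and 227.14), Pdgfra (453.70 and 388.91) and Col3a1 (365.03 and 480.72). In a culture, fewer cells of a type and less RNA per cell cannot be told apart.

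Of the 40 genes, 32 exceeded the floor on 1 or both arrays and are called measured here. A gene is represented by its brightest probe set, and a ratio is KO over WT on the log2 scale with values under the floor set to the floor. Itgb1 and Sdc4 were higher in the knockout by 2-fold or more, 2 of 32 members, where 3.73% of all 14597 measured genes were. None of the 32 was at least 2-fold lower (0 of 32), where 6.72% of all measured genes were. The members' median log2 ratio was 0.07, with 17 above 0 and 15 below, beside a median of -0.06 over all measured genes. The medians were -0.10 for 15 measured integrin alpha genes, -0.08 for 6 integrin beta genes, 0.68 for 4 syndecans and 0.20 for 7 laminin chains. Outside the syndecans these medians lay close to 0, and the sign of the other 3 depended on the settings: quantile scaling turned the alpha median to 0.03 and the laminin median to -0.05, and a floor at the 20th percentile turned the beta median to 0.07.

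**Figure D1:**
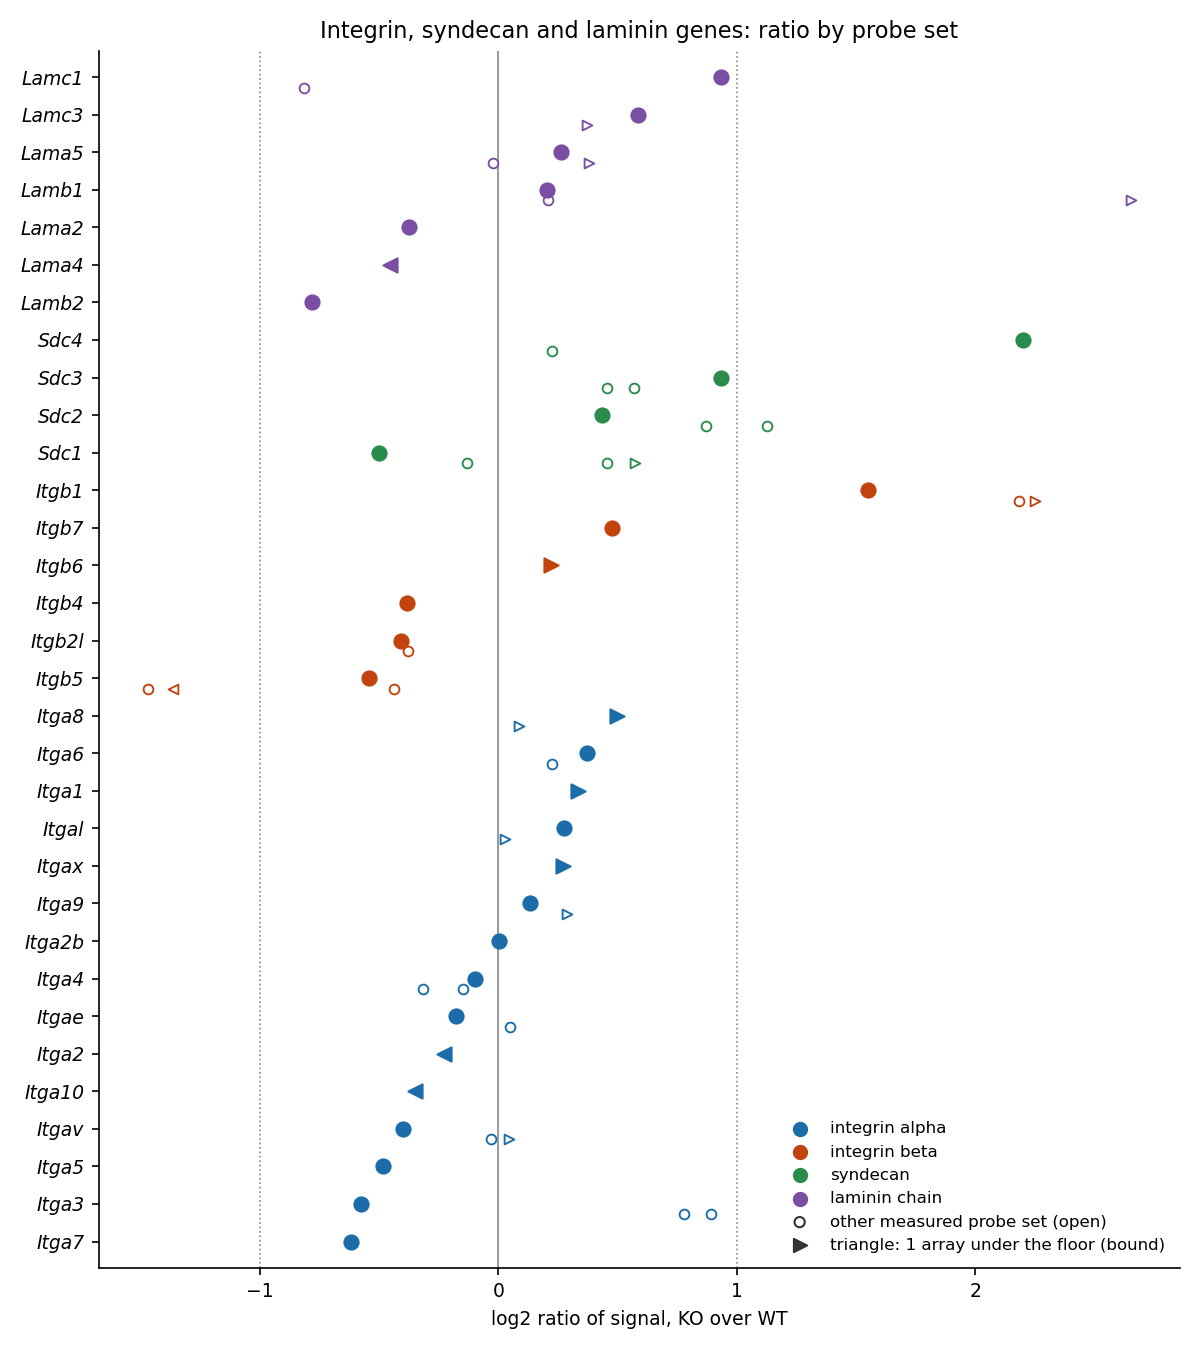
Log2 ratio of signal (KO over WT, horizontal axis) for the 32 measured genes, coloured by class. Filled symbols are the brightest probe set of a gene, open symbols its other measured probe sets, triangles are bounds because 1 array was under the floor, and dotted lines mark 2-fold. Sdc4 (2.20) and Itgb1 (1.55) are the filled symbols beyond 2-fold, and the open symbol of Sdc4 sits at 0.22.

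**Figure D2:**
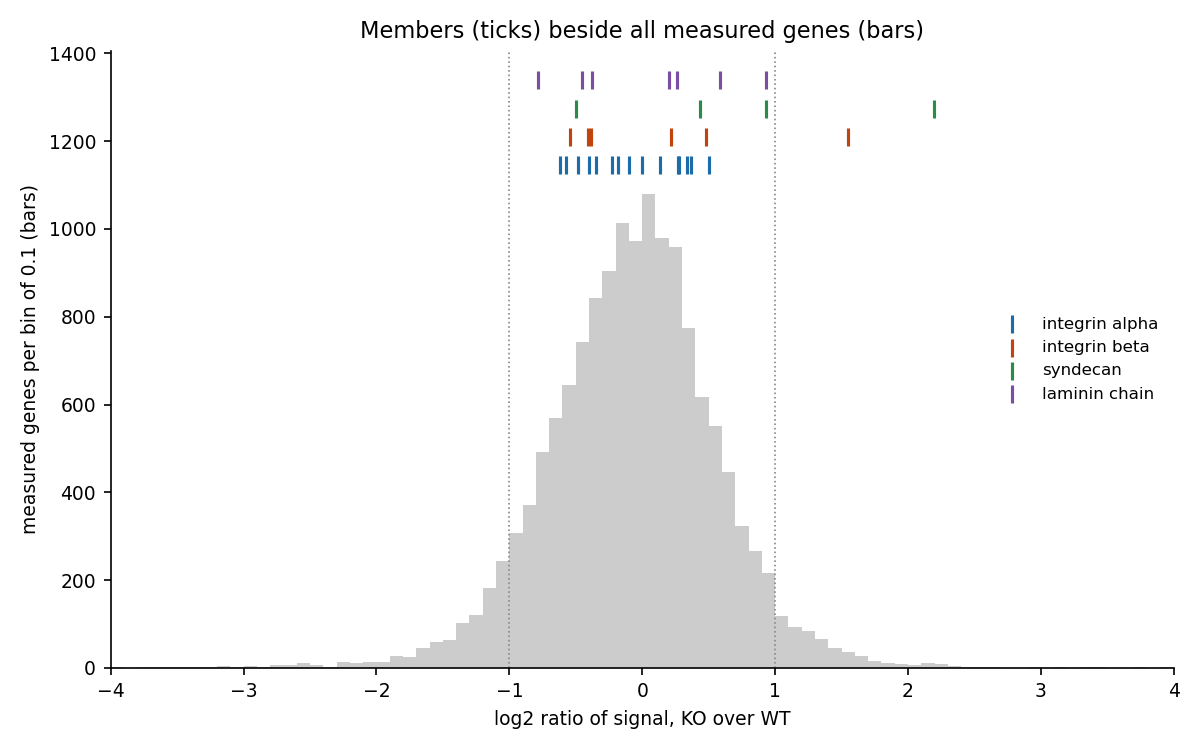
Number of measured genes per bin of 0.1 in log2 ratio (bars, KO over WT), with the 32 measured members as ticks above the bars, 1 row per class, whose height has no scale. The axis ends at -4 and 4, with 3 genes beyond it. Most ticks lie within the bulk of the bars, and those of Itgb1 and Sdc4 lie to the right of the 2-fold line.

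By brightest probe sets the syndecans held the member with the largest ratio, while by the mean over measured probe sets Itgb1 (log2 ratio 1.99) lay above Sdc4 (1.21). The Itgb1 mean includes 1427771_x_at, measured through the KO array alone. It leaves out the Itgb1 probe sets under the floor on both arrays, so this order depends on the floor. Sdc4, which acts with integrins at focal adhesions and binds fibronectin and growth factors, read 468.01 and 2148.91 by 1417654_at, 4.59-fold higher in the knockout. Its other probe set, 1448793_a_at, which the annotation pairs with the same sequence record, read 275.96 and 322.17, a ratio of 1.17. Both were higher in the knockout, and only the first reached 2-fold.

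Sdc3, the other syndecan of satellite cells, linked there to Notch signalling, was higher in the knockout by every probe set. The signals were 225.62 and 430.90 by 1420853_at, 239.29 and 328.68 by 1450027_at, and 100.34 and 148.80 by 1436482_a_at. These are 1.91-fold, 1.37-fold and 1.48-fold, all short of 2-fold.

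Sdc2, a syndecan of mesenchymal cells, was likewise higher by its 3 measured probe sets. It read 376.23 and 508.28 by its brightest, 1417011_at (1.35-fold), 149.35 and 273.16 by 1417012_at (1.83-fold), and 158.89 and 346.95 by 1448545_at (2.18-fold). The 3 are paired with 1 sequence record, so they share a target. Its remaining probe set, 1431474_at, did not exceed the floor.

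Sdc1, best known from epithelia and plasma cells, had no common direction. Its brightest probe set 1437279_x_at read 732.77 and 517.92 (1.41-fold lower in the knockout), 1415943_at read 371.27 and 509.73 (1.37-fold higher), and 1415944_at read 107.55 and 98.34. 1448158_at read 13.53, under the floor, and 69.98, at least 1.49-fold higher. A probe set whose name ends in _x_at can hold probes that match other transcripts, and without such probe sets and those ending in _s_at the log2 ratio of Sdc1 turned from -0.50 to 0.46.

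Taken by probe set, 10 of the 12 measured syndecan probe sets were above 0, and 2 exceeded 2-fold in that direction. Of these, 1448158_at of Sdc1 was measured through the KO array alone. The 12 belong only to Sdc1, Sdc2, Sdc3 and Sdc4, several share a sequence record, and they are not replicates. Their median log2 ratio was 0.51, beside -0.02 over all 25057 measured probe sets that name 1 gene, of which 5.62% were higher by 2-fold or more and 6.67% lower. Over all classes 6 of 63 measured member probe sets were higher by 2-fold or more and 2 of 63 lower. The 6 belonged to Itgb1 (3), Lamb1 (1), Sdc2 (1) and Sdc4 (1), and both lower ones to Itgb5.

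**Figure D3:**
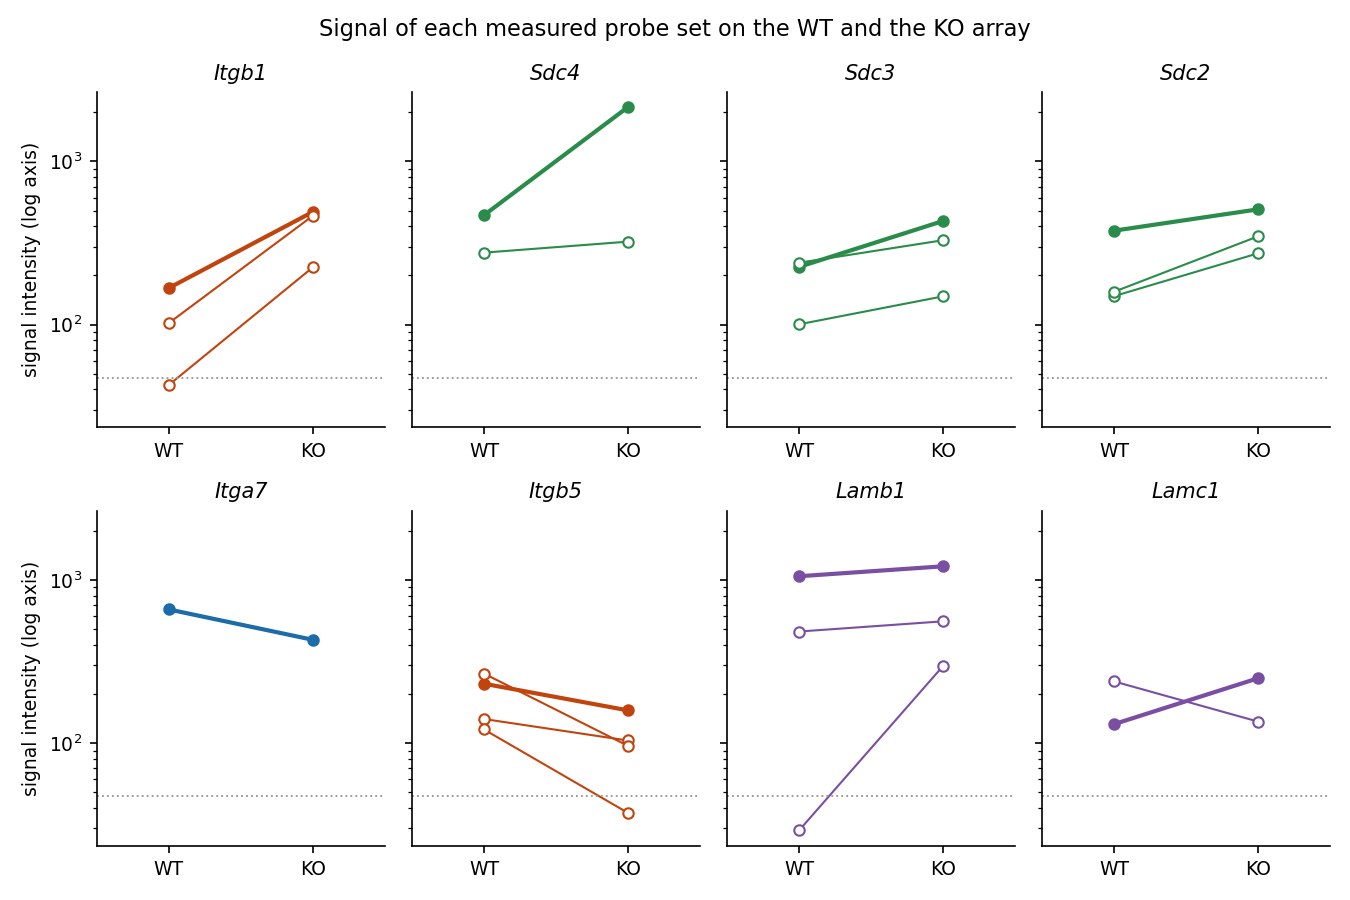
Signal intensity (log axis) on the WT and the KO array for each measured probe set of 8 members. The thick line with filled points is the brightest probe set, thin lines with open points are the others, and the dotted line is the floor of 47.04. The 3 lines of Itgb1 slope up together and the 4 lines of Itgb5 slope down, while both lines of Lamc1 cross.

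Among the integrin beta genes, Itgb1, the shared beta subunit of the laminin, collagen and fibronectin receptors, was higher in the knockout by each of its 3 measured probe sets. 1426918_at read 167.57 and 490.11, 2.92-fold higher. 1452545_a_at read 102.20 and 463.57, 4.54-fold higher. 1427771_x_at read 42.67, under the floor, and 223.94, at least 4.76-fold higher. The last pair is built on 1 sequence record and 1426918_at on another, so 2 target sequences gave the same direction. Its remaining 3 probe sets, 1426919_at (2.98 and 24.04), 1426920_x_at (24.49 and 17.48) and 1438119_at (14.27 and 37.05), were under the floor on both arrays, although the first 2 of these share their sequence record with 1426918_at.

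Itgb5, which pairs with Itgav to bind vitronectin, was lower in the knockout by 4 of 4 probe sets. 1417533_a_at, the brightest, read 231.12 and 158.70 (1.46-fold lower) and 1417534_at read 140.38 and 103.68 (1.35-fold lower). 1456133_x_at read 266.55 and 96.29 (2.77-fold lower) and 1456195_x_at read 121.16 and 37.38, the latter under the floor (at least 2.58-fold lower). The probe sets past 2-fold were thus the _x_at pair, and the gene as a whole was not counted as 2-fold lower.

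The other beta genes were dim or differed less. Itgb2l, an integrin beta-like gene, read 171.58 and 129.16 by 1433053_at and 145.07 and 111.74 by 1449829_at. Itgb7, a leukocyte subunit, read 75.13 and 104.59. Itgb4, the hemidesmosome subunit of epithelia, read 65.32 and 50.13, and Itgb6, an epithelial partner of Itgav, read 41.95 and 54.80, above the floor on the KO array alone. The largest of these ratios was 1.39-fold, for Itgb7. Itgb2, the common leukocyte subunit, Itgb3, Itgb8 and Itgbl1 were under the floor on both arrays.

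The integrin alpha genes showed no 2-fold difference in either direction (0 of 15 measured genes and 0 of 26 measured probe sets), beside 3.73% and 6.72% of all genes and 5.62% and 6.67% of all probe sets, higher and lower. At these shares few calls would fall among so few genes, and nothing particular to the class is read from the count. Itga7, the laminin-binding subunit of muscle, read 659.27 and 429.72, 1.53-fold lower in the knockout, and this rested on its single probe set, 1418393_a_at. Its log2 ratio was -0.62 and lay between -0.66 and -0.57 under the alternative scalings and the pseudocount. The other alternative settings could not move it, since its single probe set lay above every floor and is neither _s_at nor _x_at.

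Itga6, also a laminin-binding subunit, was slightly higher in the knockout by both probe sets, at 1085.24 and 1402.95 (1.29-fold) and 539.43 and 631.40 (1.17-fold). Itga3, the remaining classical laminin receptor subunit, read 214.53 and 143.90 by its brightest probe set, while 1421997_s_at read 85.73 and 147.15 and 1460305_at read 75.99 and 140.97. Its direction therefore depended on the probe set, and the mean log2 ratio over the 3 was 0.36.

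Among the subunits that bind fibronectin and related ligands, Itga5, the classical fibronectin receptor subunit, read 239.67 and 171.35 (1.40-fold lower in the knockout) by its single measured probe set, 1423267_s_at. Itgav, the vitronectin receptor subunit, read 839.31 and 636.10 by 1452784_at (1.32-fold lower) and 137.36 and 134.52 by 1432296_a_at. 1421198_at read 19.79, under the floor, and 48.58, so that Itgav had no common direction. Itga4, the receptor subunit for Vcam1, was below 0 in log2 ratio by its 3 measured probe sets, but by little, at 357.08 and 333.80, 94.46 and 85.38, and 62.34 and 50.07. Under quantile scaling the Itga4 log2 ratio turned from -0.10 to 0.03.

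Itga9, a tenascin receptor subunit, read 81.42 and 89.20, and Itga8, a subunit of mesenchymal cells, read 29.42, under the floor, and 66.51, at least 1.41-fold higher in the knockout. With the floor at the 20th percentile Itga8 reached a log2 ratio of 1.18. The collagen-binding subunits were dim: Itga1 read 31.83 and 59.32, Itga2 55.07 and 33.50, and Itga10 59.92 and 41.18, each under the floor on 1 array, so their ratios are bounds (at least 1.26-fold higher, 1.17-fold lower and 1.27-fold lower). With Itgav, the alpha partners of Itgb1 were 4 above 0 and 7 below among 11 measured, with a median log2 ratio of -0.23, while Itgb1 itself was at 1.55. Of the 11 ratios 4 were bounds, the median being that of Itga2, itself a bound. Itga3 and Itgav, counted below 0 by their brightest probe sets, had no common direction.

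Alpha subunits known from blood cells were also present in the table. Itga2b, the platelet fibrinogen receptor subunit, read 267.66 and 267.92, level between arrays, while its partner Itgb3 was under the floor on both. Itgal read 88.29 and 106.99, Itgae 59.91 and 52.93 (54.72 and 56.63 by its other probe set), and Itgax 9.32, under the floor, and 56.71. Itgam, and Itgb2 with which Itgal, Itgam and Itgax pair, were under the floor on both arrays. None of these subunits differed by 2-fold, although with the floor at the 20th percentile the log2 ratio of Itgax was 1.17.

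The laminin chains divided by direction without reaching 2-fold at their brightest probe sets. Lama2, the alpha chain of muscle laminin, read 229.07 and 176.72, 1.30-fold lower in the knockout. Lamb2, the beta chain concentrated at the neuromuscular junction, read 146.17 and 84.99, 1.72-fold lower (log2 ratio -0.78). Lama4, a chain of vessels and nerve, read 64.50 and 36.23, the latter under the floor (at least 1.37-fold lower). Each of these rested on 1 measured probe set.

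Higher in the knockout were Lamb1, the common beta chain, at 1053.24 and 1211.78 by 1424114_s_at and 482.65 and 557.34 by 1424113_at, ratios of 1.15-fold in both. The third measured probe set of Lamb1, 1451241_at, stood apart at 29.13, under the floor, and 295.50, at least 6.28-fold higher, although all 3 are paired with 1 sequence record. Under quantile scaling the brightest probe set of Lamb1 turned from a log2 ratio of 0.20 to -0.05, and the mean over its 3 measured probe sets was 1.02.

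Lamc1, the common gamma chain, had 2 probe sets of nearly equal brightness (mean log2 signals of 7.50 and 7.49) and opposite direction. 1423886_at read 130.62 and 249.42, 1.91-fold higher in the knockout, and 1423885_at read 238.63 and 135.50, 1.76-fold lower. They are paired with the same sequence record and average to a log2 ratio of 0.06, so no direction is given for Lamc1. Lamc3 read 116.13 and 174.54 (1.503-fold higher) and 19.36, under the floor, and 60.93. Lama5, a chain of mature basement membranes, read 359.47 and 431.34, 221.86 and 218.35, and 24.95, under the floor, and 61.28.

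By trimer, the chains of muscle laminin thus read 1.30-fold lower (Lama2), 1.15-fold higher (Lamb1) and without a common direction (Lamc1). Lama1, Lama3 and Lamb3 were under the floor on both arrays. Itga11 and Itgad were not analysed here.

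Different probe sets of a gene gave the only internal comparison of a ratio. Of 19 members with at least 2 measured probe sets, 13 had all of them on the same side of 0 (68.4%) and 6 did not, while among all 6251 such genes 39.9% had 1 sign. A probe set under the floor on 1 array takes its direction from the array that exceeded the floor. Among the 13, Itga8, Itga9, Itgal, Itgb1, Itgb5, Lamb1 and Lamc3 each included such a probe set. Both shares therefore depend on the floor, and nothing is read from their difference. Itgb1 was the single member whose measured probe sets were all at least 2-fold in 1 direction (1 of 19, 5.26%), where 41 of all 6251 genes (0.656%) were. Of the Itgb1 probe sets, 1427771_x_at (42.67 and 223.94) was measured through the KO array alone, and those under the floor on both arrays were not counted. This count therefore depends on the floor and is no independent check of the Itgb1 ratio. The 6 with mixed signs were Itga3, Itgae, Itgav, Lama5, Lamc1 and Sdc1. Within a gene, log2 ratios over the floor on both arrays had an SD of 0.56 among 36 probe sets of 15 members and 0.66 over 12090 probe sets of all genes. By their brightest probe sets, Itgb1, Sdc4 and Sdc3 had log2 ratios above 0.66 and Lamb2 one below -0.66. The ratios of the Lamc1 probe sets exceeded this size in opposite directions. Those of the other members over the floor on both arrays lay closer to 0. The remaining ratios are bounds, whose size depends on the floor. With it at the 20th percentile, Itga8 stood at 1.18, Itgax at 1.17, Itga1 at 0.90, Lama4 at -0.83 and Itga2 at -0.72. Itga10 (-0.54) and Itgb6 (0.39) stayed within 0.66 there.

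Around these receptors, a list of adaptors, heparan sulphate enzymes, matrix ligands and basement membrane genes was set beside the members. Of its 66 genes 64 were measured, with 7 higher in the knockout by 2-fold or more (3.73% of all genes were), 4 lower by as much (6.72% of all genes) and a median log2 ratio of 0.12. Among adaptors, Itgb1bp2, which encodes melusin, a muscle protein that binds the cytoplasmic tail of Itgb1, read 330.45 and 1.26, at least 7.02-fold lower in the knockout by its only probe set. Sdcbp, which encodes syntenin and binds the tails of syndecans, read 586.23 and 1900.68, 3.24-fold higher by its brightest probe set, while its other probe sets read 175.34 and 195.32, and 120.67 and 99.42. Zyx, which encodes the focal adhesion protein zyxin, read 781.87 and 1812.26 (2.32-fold higher), with 503.65 and 481.02 at its other probe set, and Flna, an actin crosslinker that binds integrin tails, read 743.45 and 1525.89 (2.05-fold higher).

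The core adaptors of the integrin tail named here were below 2-fold in either direction by their brightest probe sets, while 3 of them had another probe set past 2-fold. Tln1, the talin of most cells, read 481.25 and 904.40 (1.88-fold higher in the knockout) and 107.56 and 304.16 (2.83-fold higher) by its other probe set, and Tln2, the talin enriched in striated muscle, read 205.71 and 102.92 (1.999-fold lower), so the talins lay on opposite sides. Fermt2 (531.15 and 490.20), Ilk (391.07 and 462.30), Vcl (1050.61 and 1013.50) and Pxn (1032.31 and 974.80), which encode kindlin, integrin-linked kinase, vinculin and paxillin, differed by 1.04-fold to 1.18-fold by their brightest probe sets. Other measured probe sets differed more: Vcl read 14.74, under the floor, and 156.41 (at least 3.33-fold higher), Pxn 4.29, under the floor, and 115.23 (at least 2.45-fold higher), and Fermt2 126.93 and 248.78 (1.96-fold higher). These were named for their role, after their values were seen. Other adaptors of the list, such as Lims1, Actn1 and Crk, also had a further probe set more than 2-fold higher in the knockout. The count of 3 thus depends on which adaptors were named.

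Among ligands, Thbs1, a matrix glycoprotein that binds integrins and Cd47, read 115.46 and 508.46, 4.40-fold higher in the knockout, and 40.72, under the floor, and 352.76 at its other probe set. Col4a2 and Col18a1, collagens of the basement membrane, read 68.85 and 175.05 (2.54-fold higher) and 398.09 and 962.97 (2.42-fold higher), and Tnc, which encodes tenascin, read 683.63 and 1393.92 (2.04-fold higher). Col18a1 and Tnc were less different at their other probe sets, at 552.63 and 636.29 and at 170.71 and 182.15. Npnt, which encodes nephronectin, a ligand of Itga8, read 442.73 and 107.64, 4.11-fold lower, and Ccn2, a matricellular protein, 179.08 and 73.78, 2.43-fold lower. B4galt7, an enzyme of heparan sulphate synthesis, read 142.85 and 46.16, the latter under the floor, at least 3.04-fold lower. This rested on a single measured probe set, whose name ends in _x_at.

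**Figure D4:**
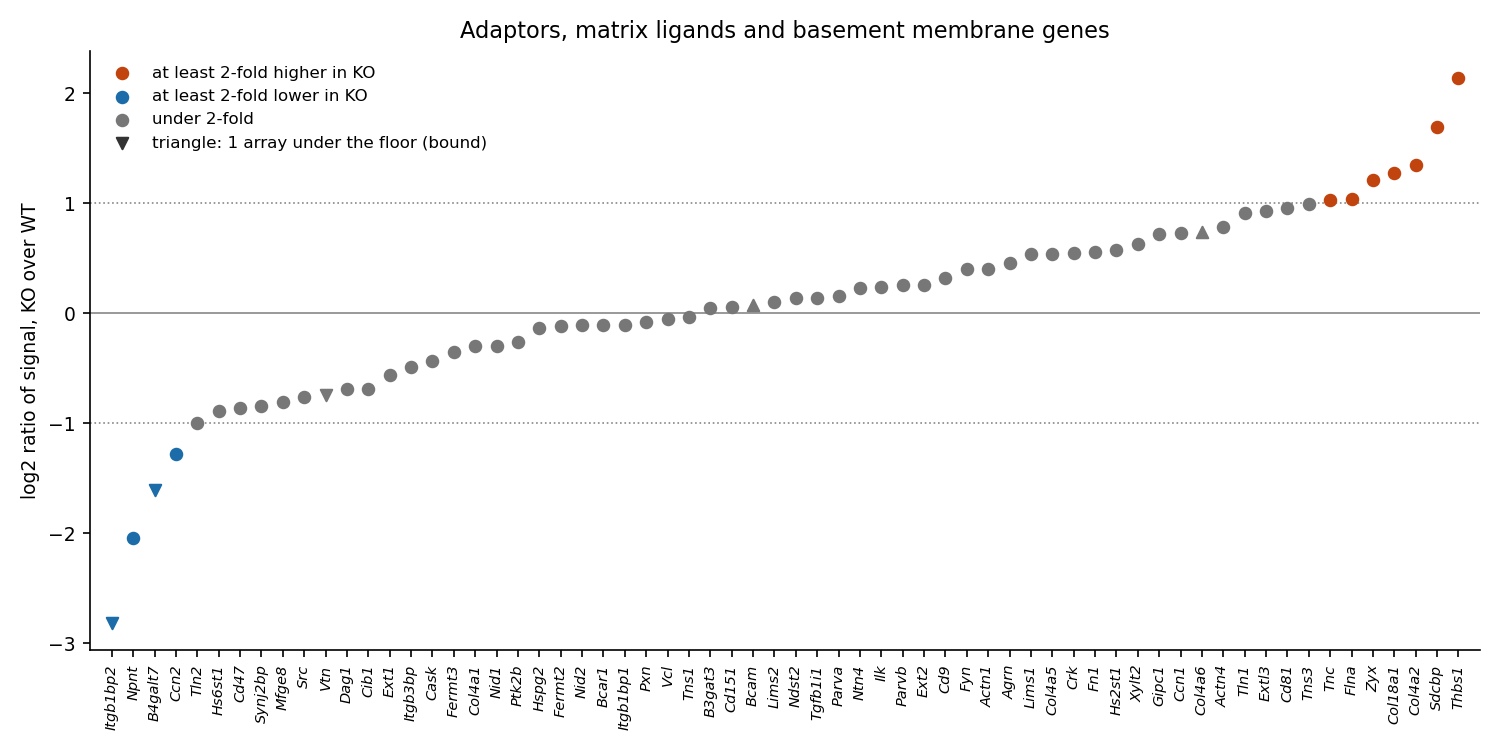
Log2 ratio of signal (KO over WT, vertical axis) of the 64 measured genes of the list of adaptors, ligands and basement membrane genes, in order of ratio, by brightest probe set. Triangles are bounds and dotted lines mark 2-fold. The list runs from Itgb1bp2 at -2.81 to Thbs1 at 2.14, with 4 genes at or below the lower line and 7 at or above the upper.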

How the data were processed

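The value table deposited by the authors holds a linear signal intensity per probe set, from 10 ug of total RNA per array per the labels. The sources used here do not say how probes were summarised or arrays scaled, and values were used as deposited. Per the file headers, 40 of 42 fields recorded for both arrays were identical, and the hybridisation time and the day of the scan were the same. Columns without a sample numbered 0.

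Symbols came from the platform annotation and were updated by Entrez identifier (RefSeq, GRCm38.p6). Of 45037 probe sets 34945 had 1 symbol, 932 several and 9160 were not listed. Only the first kind names a gene. The floor of 47.04 is the 40th percentile of the pooled values. A count at 2-fold is a fixed size and not a test. The calculation was run on simulated data with known ratios in bright genes. There all probe sets of a gene carried the same ratio apart from small noise. The run therefore does not address disagreeing probe sets or genes near the floor. Alternatives were scaling (quantile, the same median, loess of span 0.3), the floor (20th or 60th percentile, or none), a pseudocount, the mean over measured probe sets, leaving out _s_at and _x_at probe sets or Itgbl1, and thresholds of 1.5-fold and 3-fold. Every measured member is named, and of the adaptors and ligands those at least 2-fold different. Some adaptors below 2-fold by their brightest probe sets were also named, after their values were seen. The members, lists and settings were chosen with earlier results of these data known. Python 3.11.15, numpy 2.4.6, pandas 2.3.3 and statsmodels 0.14.6 were used. Precision is limited by there being 1 array per group.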

Additional observations from a re-analysis of the deposited data

How the results depend on the processing

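Itgb1 and Sdc4 stayed at least 2-fold higher in the knockout under each of the 9 alternatives other than the thresholds and leaving out Itgbl1. The 3 other floors did not move either ratio, since both genes lay above them. Leaving out _s_at and _x_at probe sets could not move them either, since the brightest probe set of each gene is of neither kind. Their log2 ratios ranged from 1.32 to 1.99 (Itgb1) and from 1.21 to 2.20 (Sdc4). The count of higher members was 4 of 32 under quantile scaling (4.07% of all genes) and 4 of 32 under loess scaling (4.14%), with Lamc1 and Sdc3. It was 4 of 40 with the floor at the 20th percentile (5.11%) and 4 of 40 with no floor (8.61%), with Itga8 and Itgax. It was 5 of 32 at 1.5-fold (12.8%) and 1 of 32, Sdc4, at 3-fold (0.747%). The mean over probe sets gave 3 of 32 (3.03%), with Lamb1. The count of lower members was 1 of 40 with no floor (10.3% of all genes), Itgb2, and 2 of 32 at 1.5-fold (19.3%), Itga7 and Lamb2.

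In the list of adaptors and ligands, the higher genes numbered 3 under quantile scaling, 4 with a pseudocount, 16 at 1.5-fold and 2 at 3-fold, and the lower ones 13 at 1.5-fold. The median log2 ratio of that list was 0.24 without _s_at and _x_at probe sets. The median of all members ranged from -0.05 to 0.13, that of the syndecans from 0.60 to 0.77. A member's ratio was compared with the spread of 0.66 between probe sets of a gene, and 9 of 310 values moved by more, those of Itga3, Lamb1, Lamc1 and Sdc4 with the mean over probe sets, Itga8 and Itgax with a lower floor or none, and Sdc1 without _x_at probe sets. The cause was not tested. Many of the 310 values could not move: leaving out Itgbl1 changes no other gene's ratio, and a floor below a gene's signals leaves it unchanged. The same holds for the mean where a gene has a single measured probe set. The 9 of 310 is therefore no measure of stability. No paired analysis was possible because each group has 1 array. Replicates could not be left out for the same reason.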
